A study of Oryza sativa with 9 samples.

Results

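Roots of the rice line labelled OE2 were compared with roots of the line labelled dgk1, with the wild type of the same study left out. Per the labels, OE2 carries the genotype dgk1 OE, an overexpression, and the dgk1 line the genotype dgk1 KO, a knockout, both in Oryza sativa of the cultivar Dongjin. Both lines were grown in soil with 10 h of light and 14 h of dark, and roots were taken at 7 days of age. Each line gave 3 libraries, which the series' design text calls biological repetitions. The sources used here do not state how many plants made up a library, which promoter drives the transgene or what lesion dgk1 carries, and 1 line stands for each genotype. All gene models with at least 1 FPKM (fragments per kilobase of model, scaled to depth) in at least 3 of the 6 libraries were compared, which kept 21115 of the 105692 listed: 13374 annotated models with an OS identifier, 5542 numbered models without one and 2199 noncoding models. At the edge of this filter, the third-highest value was 1.00006 FPKM in the last model kept and 0.99998 FPKM in the first left out.

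Diacylglycerol kinases add a phosphate to the membrane lipid diacylglycerol and so make phosphatidic acid, and each of these lipids signals at plant membranes. In roots, phosphatidic acid binds proteins that steer vesicle traffic, the cytoskeleton and hormone transport. Root form in turn rests on cell division, on loosening and cross-linking of cell walls, and on auxin and cytokinin. The study's title places the kinase and its lipids in the shaping of the rice root.

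Each library held 9786426 to 9846049 fragments in OE2 and 10536887 to 12346054 fragments in dgk1. The first axis of a principal component analysis held 53.2% of the variance and parted the lines, with OE2 at -52.9 to -43.9 and dgk1 at 44.7 to 52.1. Along the second axis (16.4%) OE2 replicate 2 stood apart at -50.2, whereas the remaining OE2 libraries were at 21.4 and 23.6. Summed over 71 class III peroxidases, enzymes of the cell wall, levels were 8094 to 8152 FPKM in OE2 and 6013 to 6300 FPKM in dgk1. As members of this family differ between the lines below, the sum is no check of the tissue. The summed level of 17 photosynthesis genes, markers of green tissue, was 333, 234 and 277 FPKM in OE2, against 199, 212 and 161 FPKM in dgk1, and 32 of the 42 listed were above 0 in at least 1 library. Much of this sum, and of its difference between the lines, came from 1 gene, OS09G0346500, described below. Without that gene the sums of the lines overlapped. Over the 17 genes the median log2 fold change was 0.09, with 11 positive and 6 negative. The part of green tissue in the results below was not tested.

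The targeted gene was looked at first, as a check of the labels. OS04G0634700, the annotated diacylglycerol kinase on chromosome 4 (32286661 to 32291433), showed 0 FPKM in each of the 6 libraries. Model 25546, a numbered model of the same span with the catalytic and accessory domains of the kinase, had 0.521, 0.625 and 0.571 FPKM in the OE2 libraries, against 7.24, 5.6 and 9.16 FPKM in the dgk1 libraries. All OE2 libraries were far below all dgk1 libraries, and the model fell in OE2 (log2 fold change -2.38 ± 0.19, limma adjusted p = 0.000571). In fragments, 48 were counted in OE2 and 791 in dgk1, a depth-scaled ratio of 0.0772 (95% interval for counting error 0.0565 to 0.103). The values of this model go against both labels, so the groups below are the libraries labelled OE2 and dgk1, and no direction is tied to the amount of the kinase. Where the fragments lie within the model cannot be read from values per model.

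The files describe 17 models as diacylglycerol kinases, of which 9 were at 0 in all 6 libraries and 5 were tested. Model 11163 on chromosome 12, with a diacylglycerol-binding C1 domain, was the most abundant, at 41.8, 47.7 and 45.9 FPKM in OE2, against 33.4, 31.8 and 36.2 FPKM in dgk1. Its OE2 libraries all lay above its dgk1 libraries, but the difference missed the threshold (log2 fold change 0.41 ± 0.10, limma adjusted p = 0.0633) and passed it in 1 of 14 alternatives. Model 34608 on chromosome 7 had 3.36, 3.76 and 3.94 FPKM in OE2, against 1.8, 2.09 and 2.72 FPKM in dgk1. It did not pass (log2 fold change 0.56, limma adjusted p = 0.102), although the lines did not overlap. Model 15899 on chromosome 2 averaged 3.89 ± 0.606 FPKM in OE2 and 3.22 ± 0.262 FPKM in dgk1 and OS01G0783200 1.52 ± 0.51 FPKM in OE2 and 1.75 ± 0.0807 FPKM in dgk1, with overlapping lines (limma adjusted p = 0.477 and 0.707). The other 3 models, 36311, 36689 and 7241, stayed below 1 FPKM in every library.

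**Figure D1:**
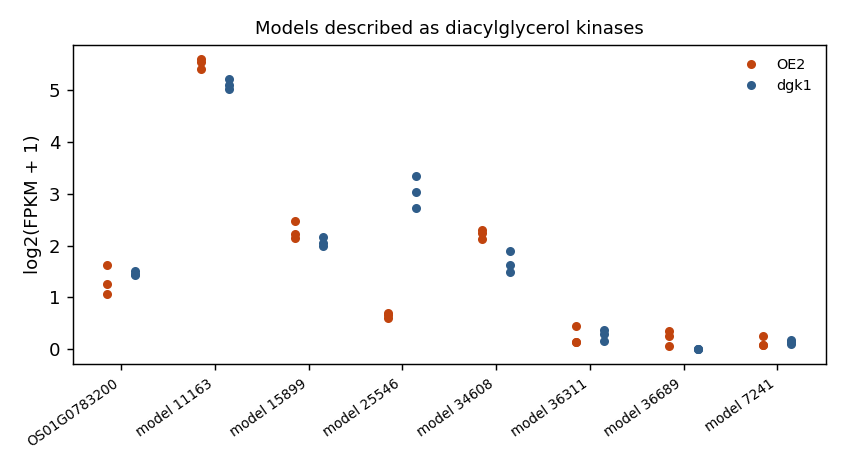
Level of each diacylglycerol kinase model above 0, as log2(FPKM + 1), with a point per library (OE2 left of dgk1 at each model, 3 libraries each). Model 25546 is the one with a gap between low OE2 values and high dgk1 values, and model 11163 is the most abundant in both lines.

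The lines labelled OE2 and dgk1 differed at 1513 of 21115 models (7.17%), of which 813 were higher in OE2 (3.85%) and 700 were lower (3.32%). Of the 813, 215 were at 0 in all dgk1 libraries, and of the 700, 224 were at 0 in all OE2 libraries. Those models passed the filter only through the line where they were high, and they count in every share of calls given here. Calls were made with limma on log2(FPKM + 1) at a Benjamini-Hochberg adjusted p of 0.05, two-sided, and 4416 models had an unadjusted p under 0.05. By kind of model, 5.85% of annotated, 10.8% of numbered and 5.96% of noncoding models were called. The difference was at least 2-fold for 1020 of the 1513. In all 1513 the OE2 and dgk1 libraries did not overlap, which was so for 27.4% of all tested models. The 2701 models that matched a list of known functions had a share of calls near the whole, 187 (6.92%), with 115 higher and 72 lower. Without OE2 replicate 2, the library that stood apart, 1360 models were called. Between 1010 (without dgk1 replicate 3) and 1134 (without dgk1 replicate 2) were called without each of the other libraries.

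The calls were not spread evenly over the genome. Of tested models, 18.1% were called on chromosome 11, 14.4% on chromosome 12 and 12.4% on chromosome 6, against 3.595% to 7.43% on the other 9. Chromosome 12 held 119 higher and 48 lower calls, and chromosome 6 held 75 higher and 137 lower. In windows of 1 Mb with at least 20 tested models, 31 of 358 windows had 25% or more of their models called. They held 452 calls, 29.9% of all, and 28 of these windows lay on chromosomes 6, 11 and 12. From 8 to 9 Mb on chromosome 12, 21 of 30 models were higher in OE2 and 1 was lower, and 16 of the 30 were at 0 in all dgk1 libraries. From 14 to 15 Mb on chromosome 6, 5 of 28 were higher and 14 lower, with 7 at 0 in all OE2 libraries and 1 in all dgk1 libraries. From 1 to 2 Mb on chromosome 4, 1 of 33 was higher and 15 lower, with 11 at 0 in all OE2 libraries. Models at 0 in a line passed the filter only through the line where they were high, so these window counts are a description. Outside chromosomes 6, 11 and 12, 912 of 17025 models were called (5.36%). For a gene inside such a stretch, a difference of the stretch between the lines and a response of the gene's function cannot be told apart, so the chromosome matters to the genes below. In an OS identifier the digits before the G are the chromosome, and for numbered models it is given in the text.

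**Figure D2:**
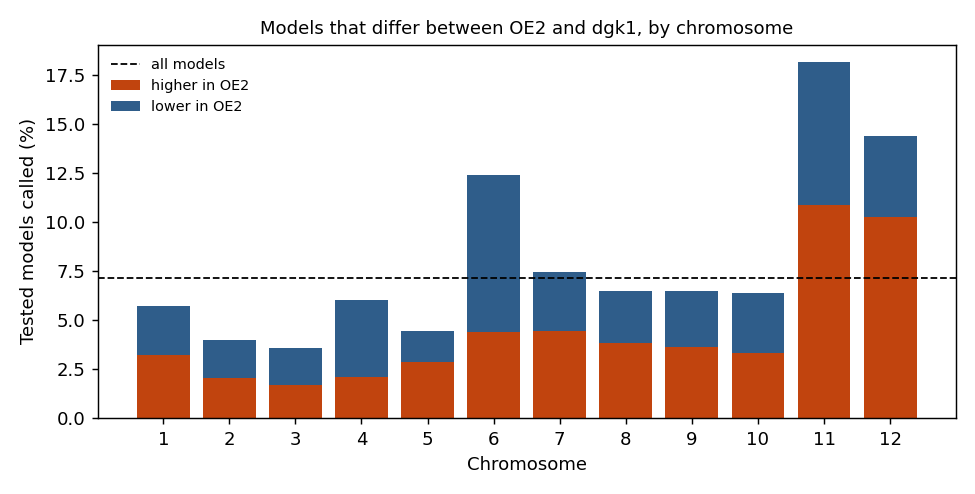
Share of tested models called on each chromosome, in percent, with models higher in OE2 in orange and models lower in OE2 in blue on top of them; the dashed line is the share over all models. Chromosomes 6, 11 and 12 stand above the other 9.

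Many of these differences were of presence against absence. Of the tested models, 215 were at 1 FPKM or more in all OE2 libraries and listed at 0 in all dgk1 libraries, and 227 were listed at 0 in all OE2 libraries and at 1 FPKM or more in all dgk1 libraries, together 442 (2.09%). Such models passed the filter through the line where they were high, so these counts are a description. Of the 215 and 227, 51.2% and 47.1% lay on chromosomes 6, 11 and 12, which hold 19.4% of tested models. Only 22 of the 215 and 13 of the 227 have a description that names a function. The largest rise and fall of annotated models had no named function and were picked after their values were seen. OS06G0204100 on chromosome 6 had 283, 182 and 283 FPKM in OE2, against 0, 0.0836 and 0 FPKM in dgk1, and OS11G0114300 on chromosome 11 had 0, 0 and 0 FPKM in OE2, against 273, 243 and 344 FPKM in dgk1. Their limma adjusted p-values were 6.17e-06 and 1.6e-06.

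Among models with a named function, the largest rise was in OS01G0780900, an antigen-like protein (chromosome 1, 33082114 to 33083394), at 99, 83.7 and 92.8 FPKM in the OE2 libraries, against 0, 0 and 0 FPKM in the dgk1 libraries. Against a floor of 3 fragments over the dgk1 libraries this was at least 1426-fold higher (limma adjusted p = 1.56e-06). Model 7742, with the enoyl-CoA hydratase/isomerase domain of fatty acid breakdown, came next among enzymes (chromosome 10, 22724958 to 22740161), at 81.3, 83.2 and 73.4 FPKM in the OE2 libraries, against 1.07, 1.25 and 0.785 FPKM in the dgk1 libraries. Its OE2 libraries were high and close together, its dgk1 libraries were all low, and it rose (log2 fold change 5.31 ± 0.13, limma adjusted p = 6.17e-06). Model 5834, a protein kinase on chromosome 10, had 17.5, 21.9 and 24.3 FPKM in the OE2 libraries, against 0.022, 0 and 0 FPKM in the dgk1 libraries. It was at or near 0 in every dgk1 library and rose (log2 fold change 4.45, limma adjusted p = 1.83e-05). Model 35039 on chromosome 7, with the domain of the transcription elongation factor TFIIS, rose, with 15.8 ± 2.82 FPKM in OE2 and 0.815 ± 0.279 FPKM in dgk1 (log2 fold change 3.21, limma adjusted p = 0.000129).

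Further rises concerned transposons, immune-receptor genes and a regulator of wall or sugar enzymes. Model 36985 on chromosome 8, described as an inhibitor of invertase or pectin methylesterase, had 7.74, 9.09 and 12.1 FPKM in the OE2 libraries, against 0, 0 and 0 FPKM in the dgk1 libraries. The description does not say which of these enzymes it may block or where in the cell, and the model rose (log2 fold change 3.39, limma adjusted p = 0.000101). Models 29015, 30209, 14664 and 39275 (chromosomes 5, 6, 2 and 9), described as transposase, copia-type gag, MULE transposase and gypsy-type transposon, averaged 46.5, 17.8, 14.9 and 9.09 FPKM in OE2 and at most 0.0391 FPKM in dgk1. Model 11226 on chromosome 12, with a C2 domain, had 8.91, 30.8 and 5.52 FPKM in OE2, against 0.355, 0.264 and 0.367 FPKM in dgk1. OE2 replicate 2 was the highest by far, and the error was the largest of these rises (log2 fold change 3.26 ± 0.56, limma adjusted p = 0.02). Model 11226 lost its call without any 1 library other than OE2 replicate 2 and OE2 replicate 3 (limma adjusted p up to 0.0753).

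The largest falls with a named function had the same character. Model 32754, a retrotransposon gag protein on chromosome 7, had 0.0147, 0.0311 and 0 FPKM in the OE2 libraries, against 33.9, 40.5 and 32.4 FPKM in the dgk1 libraries. It was at or near 0 in every OE2 library and fell (log2 fold change -5.17, limma adjusted p = 7.31e-06). Model 30907 on chromosome 6, with an acyl-CoA dehydrogenase domain of fatty acid breakdown, averaged 0.0124 ± 0.0215 FPKM in OE2 and 22.2 ± 5.22 FPKM in dgk1 and fell (log2 fold change -4.49 ± 0.19, limma adjusted p = 4.2e-05). OS11G0704500, metallothionein-like protein 1A, which belongs to the small metal-binding proteins, had 0.185, 0.392 and 0.95 FPKM in the OE2 libraries, against 28.6, 26.7 and 25.5 FPKM in the dgk1 libraries. It fell (log2 fold change -4.24 ± 0.20, limma adjusted p = 6.4e-05) and lies near the end of chromosome 11 (28827746 to 28828439). Model 36605 on chromosome 8, with a GDSL/SGNH-like acyl-esterase domain known from enzymes that acylate wall polysaccharides, had 0.342, 0.931 and 0.552 FPKM in OE2, against 15.5, 16.6 and 9.23 FPKM in dgk1 (log2 fold change -3.17, limma adjusted p = 0.000637). The remaining falls of this group were 3 transposon-derived models, 2 NB-ARC genes, a leucine-rich repeat gene, a model with a dimerisation domain and WRKY76, and the last is described with the regulators.

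**Figure D3:**
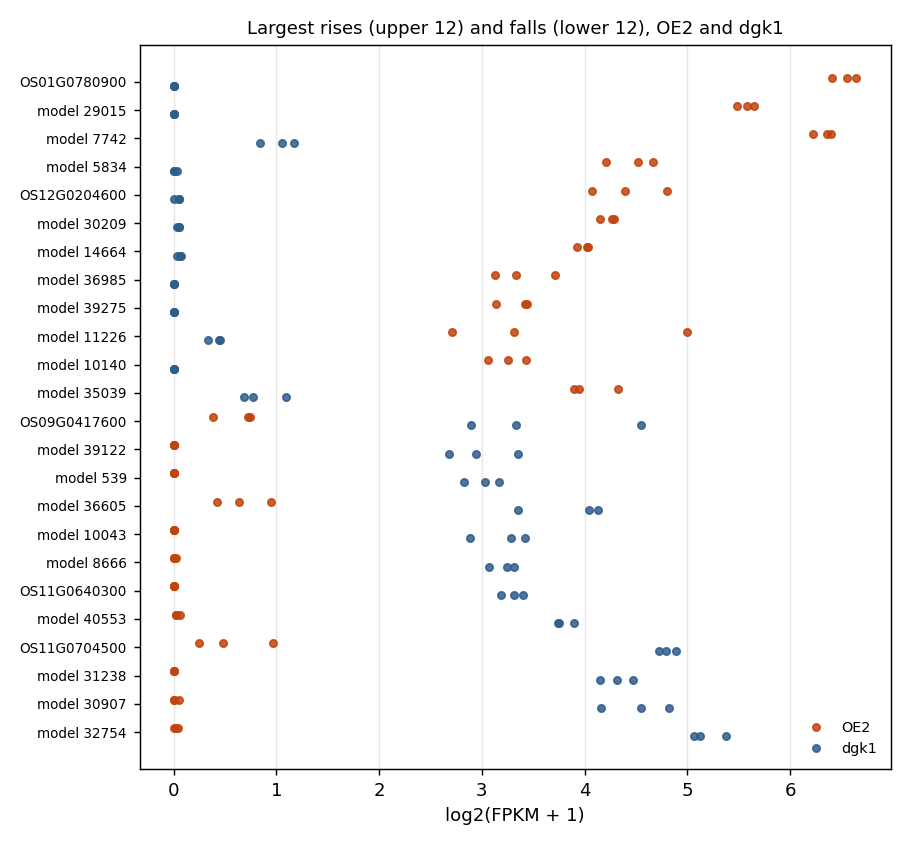
Level in each library, as log2(FPKM + 1), of the 12 largest rises (upper) and 12 largest falls (lower) among models with a named function; OE2 points lie above dgk1 points at each model. In every model the lines are apart, and most are at or near 0 in 1 of them.

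Genes of lipid metabolism are the closest neighbours of the kinase. Of 22 phospholipases and phosphatidate phosphatases, 1 rose and 1 fell, 9.09% against 7.17% of all models. Model 9743, a lipin, of the phosphatases that turn phosphatidic acid back into diacylglycerol, had 17.7, 20.8 and 16.5 FPKM in the OE2 libraries, against 10.3, 11.4 and 12.2 FPKM in the dgk1 libraries. It rose (log2 fold change 0.65 ± 0.13, limma adjusted p = 0.033), whereas model 31282, of the divergent PAP2 phosphatase family, fell, with 1.51 ± 0.0881 FPKM in OE2 and 5.89 ± 0.692 FPKM in dgk1 (log2 fold change -1.45, limma adjusted p = 0.0012). Model 9743 lies on chromosome 11 and model 31282 on chromosome 6, and none of the 17 members outside chromosomes 6, 11 and 12 was called. None of 19 phosphoinositide enzymes was called by limma, with 4 at an unadjusted p under 0.05 and 1 called lower by limma-voom. The most abundant of them, the phosphatidylinositol phosphate kinase OS09G0453900, averaged 36.2 ± 0.807 FPKM in OE2 and 45.2 ± 4.28 FPKM in dgk1 (limma adjusted p = 0.143). Model 9743 lost its call without any 1 of the 6 libraries (limma adjusted p up to 0.113).

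Of 85 fatty acid and acyl-lipid enzymes, 4 rose and 3 fell, 8.24% against 7.17% of all models. Beside models 7742 and 30907, a second enoyl-CoA hydratase/isomerase, model 11331 on chromosome 12, rose, with 23.7 ± 2.64 FPKM in OE2 and 5.14 ± 1.01 FPKM in dgk1 (log2 fold change 2.02 ± 0.16, limma adjusted p = 0.000677). The very-long-chain hydroxyacyl-CoA dehydratase OS01G0150800, which acts in the elongation of wax and suberin acids, had 1.94, 1.37 and 1.58 FPKM in the OE2 libraries, against 5.66, 8.38 and 6.38 FPKM in the dgk1 libraries. Its OE2 libraries were all below 2 FPKM, and it fell (log2 fold change -1.56 ± 0.18, limma adjusted p = 0.00313). The lipase OS06G0210900 fell on chromosome 6, with 48.8 ± 6.03 FPKM in OE2 and 135 ± 8.74 FPKM in dgk1, whereas the GDSL lipase OS03G0859100 and the lipase OS05G0372400 rose by 0.66 and 0.55 on the log2 scale. These 3 were picked after their values were seen, as were all models below that the naming rule does not give and that are called further members. Of 13 lipid transfer proteins, which carry lipids to the cell surface, 1 rose (7.69%), OS11G0427800, with 27.8, 21.5 and 25.2 FPKM in OE2, against 11.4, 11.6 and 11 FPKM in dgk1 (log2 fold change 1.06, limma adjusted p = 0.00321). OS03G0859100 lost its call without OE2 replicate 3 (limma adjusted p up to 0.0522).

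Of 71 class III peroxidases, which cross-link or loosen walls with peroxide, 7 rose and none fell, 9.86% against 3.85% of all models. OS06G0547400 on chromosome 6 had 1335, 1037 and 1189.8 FPKM in the OE2 libraries, against 627, 608 and 577 FPKM in the dgk1 libraries. OS05G0134700 on chromosome 5 had 901, 872 and 885 FPKM in the OE2 libraries, against 451, 509.9 and 423 FPKM in the dgk1 libraries. In both genes, among the most abundant of the list, every OE2 library was well above every dgk1 library. They rose by nearly the same log2 fold change (log2 fold change 0.97 ± 0.11, limma adjusted p = 0.00259; and log2 fold change 0.94 ± 0.09, limma adjusted p = 0.0012). OS07G0677200 averaged 189.8 ± 42.7 FPKM in OE2 and 97 ± 10.2 FPKM in dgk1, and OS03G0234900 10.9 ± 2.54 FPKM in OE2 and 3.35 ± 0.995 FPKM in dgk1. Both rose (log2 fold changes 0.94 and 1.45, limma adjusted p = 0.0269 and 0.0127). The further members OS05G0134400, OS04G0688500 and OS06G0546500 rose by 0.91, 0.68 and 0.56 on the log2 scale. OS05G0134400 and OS05G0134700 lie 12.8 kb apart on chromosome 5, and OS06G0546500 and OS06G0547400 27.7 kb apart on chromosome 6, so fragments of similar copies may be shared between them. Outside chromosomes 6, 11 and 12, 5 of 59 were called (8.48%). Over the whole list 43 members were higher and 28 lower, with a median log2 fold change of 0.11, against 0.00 over all models. That median was 0.066 without OE2 replicate 2, and 0.058 with all libraries scaled to the same sum, which moved the median of all models by -0.07. In whole-root RNA, fewer cells of a type and less RNA per cell cannot be told apart. Without OE2 replicate 2, 9 were called higher, and without OE2 replicate 1, OE2 replicate 3 or dgk1 replicate 3, 3 were. OS07G0677200 lost its call without any 1 library other than OE2 replicate 2 (limma adjusted p up to 0.0985). OS03G0234900 was no longer called without dgk1 replicate 3 (limma adjusted p up to 0.0582). OS05G0134400 was not called with any 1 library other than dgk1 replicate 1 left out (limma adjusted p up to 0.12). OS04G0688500 lost its call without any 1 library other than OE2 replicate 2 and dgk1 replicate 2 (limma adjusted p up to 0.106). OS06G0546500 was no longer called without any 1 library other than dgk1 replicate 3 (limma adjusted p up to 0.0895).

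In other wall lists, against 7.17% of all models, 5.56% of xyloglucan enzymes, 4% of expansins and 14.8% of pectin enzymes were called. Of 18 xyloglucan enzymes, which cut and rejoin the hemicellulose that tethers cellulose, 1 fell: OS04G0604800 had 5.02, 6.58 and 5.94 FPKM in the OE2 libraries, against 14.9, 15 and 13.4 FPKM in the dgk1 libraries. Its lines were far apart (log2 fold change -1.18 ± 0.13, limma adjusted p = 0.00281). Of 25 expansins, which loosen walls, expansin-like B1 (OS07G0496250) rose, with 22.6 ± 5.64 FPKM in OE2 and 9.75 ± 2.29 FPKM in dgk1 (log2 fold change 1.13, limma adjusted p = 0.0314), while 19 of the 25 had negative log2 fold changes, with a median of -0.19. Without OE2 replicate 2 that median was -0.42. Among 27 pectin enzymes 3 rose and 1 fell, with all 4 outside chromosomes 6, 11 and 12. The pectinesterase OS01G0311800, which removes methyl groups from pectin, rose, with 39.4 ± 7.57 FPKM in OE2 and 19.8 ± 2.41 FPKM in dgk1 (log2 fold change 0.94, limma adjusted p = 0.0224), and the pectate lyase OS10G0457200, which cuts pectin chains, fell, with 5.01 ± 0.213 FPKM in OE2 and 8.71 ± 1.1 FPKM in dgk1 (log2 fold change -0.69, limma adjusted p = 0.0274). The third rise beside model 36985 was a further member, the pectin acetylesterase OS01G0892600, at 2.57 ± 0.603 FPKM in OE2 and 0.873 ± 0.0666 FPKM in dgk1. OS07G0496250 lost its call without any 1 library other than dgk1 replicate 2 (limma adjusted p up to 0.115). OS01G0311800 was no longer called without any 1 library other than OE2 replicate 1 (limma adjusted p up to 0.0911). OS10G0457200 was not called with any 1 library other than dgk1 replicate 1 left out (limma adjusted p up to 0.0985). OS01G0892600 lost its call without any 1 library other than OE2 replicate 2 (limma adjusted p up to 0.0849).

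The phenylpropanoid pathway, which supplies lignin and soluble phenolics, had 3 rises and 3 falls among 70 members, 8.57% called against 7.17% of all models. Phenylalanine ammonia-lyase (OS02G0626100), its entry enzyme, had 379, 460.1 and 375 FPKM in the OE2 libraries, against 278, 259.7 and 259 FPKM in the dgk1 libraries. It rose (log2 fold change 0.60 ± 0.10, limma adjusted p = 0.0174). Putrescine hydroxycinnamoyltransferase 3 (OS09G0543900), which couples phenolic acids to the polyamine putrescine, went the other way, with 121, 194 and 137 FPKM in the OE2 libraries, against 372, 301 and 396 FPKM in the dgk1 libraries. Its lowest dgk1 library was above its highest OE2 library, replicate 2, and it fell (log2 fold change -1.26 ± 0.20, limma adjusted p = 0.0134). The dirigent protein OS11G0214400, of the family that guides coupling of phenolic radicals, had 9.9, 3.74 and 6.04 FPKM in OE2, against 0, 0 and 0 FPKM in dgk1. A further dirigent protein, OS08G0375400, rose with 4.19 ± 0.713 FPKM in OE2 and 0.936 ± 0.549 FPKM in dgk1, and the further members model 11195, dirigent-like, and laccase OS12G0257600, both on chromosome 12, fell to 0 and 0.101 FPKM in OE2, against 4.25 and 3.33 FPKM in dgk1. Without OE2 replicate 2, 5 members were called higher and 5 lower. OS02G0626100 lost its call without dgk1 replicate 1, dgk1 replicate 2 or dgk1 replicate 3 (limma adjusted p up to 0.071). OS09G0543900 was no longer called without OE2 replicate 3, dgk1 replicate 1 or dgk1 replicate 3 (limma adjusted p up to 0.0631). OS08G0375400 was not called with OE2 replicate 1 or OE2 replicate 3 left out (limma adjusted p up to 0.0844).

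Diterpenoid phytoalexins are antimicrobial compounds that rice also exudes from its roots. Of 4 tested genes for them 2 rose and none fell, 50% against 3.85% of all models higher, a share that rests on 4 genes. Momilactone A synthase (OS04G0179200, chromosome 4, 5385722 to 5387215) had 80.03, 132 and 132 FPKM in the OE2 libraries, against 49.1, 48.9 and 41.8 FPKM in the dgk1 libraries. OE2 replicate 1 was the lowest of its line and still above all dgk1 libraries (log2 fold change 1.25 ± 0.21, limma adjusted p = 0.0182). Oryzalexin D synthase (OS02G0569400), a cytochrome P450 of another phytoalexin branch, had 14.4, 28.6 and 31 FPKM in the OE2 libraries, against 4.69, 6.46 and 3.08 FPKM in the dgk1 libraries. It rose with a wide error (log2 fold change 2.13 ± 0.35, limma adjusted p = 0.0157). The pimaradiene oxidase OS04G0178400, from the same stretch of chromosome 4 as momilactone A synthase, had 14.6, 26.2 and 25.6 FPKM in OE2, against 9.45, 11.4 and 12.9 FPKM in dgk1. It did not pass (log2 fold change 0.88 ± 0.25, limma adjusted p = 0.1). Without OE2 replicate 2 no member was called, and without OE2 replicate 1, 3 were. OS04G0179200 lost its call without any 1 library other than OE2 replicate 1 (limma adjusted p up to 0.0751). OS02G0569400 was no longer called without any 1 library other than OE2 replicate 1 and dgk1 replicate 2 (limma adjusted p up to 0.0632).

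Both tested models of the list of terpene synthases rose, against 3.85% of all models, and both lie on chromosome 11, where 18.1% of tested models were called. The list was matched on descriptions, and these name a different family for each of the 2. OS11G0562100, of the terpene cyclase/mutase family, had 13.8, 7.22 and 11 FPKM in the OE2 libraries, against 0.357, 0.72 and 0.788 FPKM in the dgk1 libraries. It was below 1 FPKM in every dgk1 library (log2 fold change 2.82 ± 0.25, limma adjusted p = 0.00093). The second, model 9185, has both domains of the terpene synthase family and rose less, with 12.3 ± 2.3 FPKM in OE2 and 6.23 ± 0.463 FPKM in dgk1 (log2 fold change 0.87, limma adjusted p = 0.0204). Tryptamine benzoyltransferase 2 (OS11G0643100), picked after its values were seen, joins benzoic acid to tryptamine, and it averaged 24.4 ± 7.12 FPKM in OE2 and 7.62 ± 2.26 FPKM in dgk1 (log2 fold change 1.55, limma adjusted p = 0.0297). Model 9185 lost its call without any 1 library other than OE2 replicate 1 and OE2 replicate 2 (limma adjusted p up to 0.0828). OS11G0643100 was no longer called without any 1 library other than OE2 replicate 1 (limma adjusted p up to 0.107).

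Pathogenesis-related proteins differed in both directions, with 3 of 47 higher and 4 lower, 14.9% called against 7.17% of all models. On chromosomes 6, 11 and 12, 4 of 12 were called (33.3%, against 14.7% of all models there), and elsewhere 3 of 35 (8.57%, against 5.36%). All 7 called members are described as chitinases, enzymes that cut the chitin of fungal walls. OS11G0701200 had 8.71, 8.63 and 13.3 FPKM in the OE2 libraries, against 65.2, 47.5 and 46.2 FPKM in the dgk1 libraries. Lying 24.6 kb further along chromosome 11, OS11G0702100 had 134, 82.3 and 124 FPKM in the OE2 libraries, against 35.8, 38.3 and 32.7 FPKM in the dgk1 libraries. The first fell (log2 fold change -2.28 ± 0.21, limma adjusted p = 0.00123) and the second rose (log2 fold change 1.62 ± 0.19, limma adjusted p = 0.00395), with no overlap of the lines in either. In the same cluster OS11G0701400 fell, a further member, OS11G0701900, rose, and the glycosyl hydrolase OS11G0701500 rose, with 179 ± 11.1 FPKM in OE2 and 66.5 ± 23.6 FPKM in dgk1. These neighbours are similar genes, so fragments shared between copies make their values uncertain. Elsewhere, chitinase 11 on chromosome 3 (OS03G0132900) fell, with 2.41 ± 1.04 FPKM in OE2 and 8.93 ± 1.22 FPKM in dgk1 (log2 fold change -1.58, limma adjusted p = 0.0117), as did the further member OS01G0660200, with 34.6 ± 5.67 FPKM in OE2 and 62.6 ± 6.66 FPKM in dgk1. The further member OS08G0518900 rose, with 53.6 ± 4.79 FPKM in OE2 and 25.8 ± 5.79 FPKM in dgk1 (log2 fold change 1.04, limma adjusted p = 0.0169). OS11G0701400 lost its call without any 1 library other than OE2 replicate 2 and dgk1 replicate 3 (limma adjusted p up to 0.0819). OS11G0701500 was no longer called without any 1 library other than dgk1 replicate 2 and dgk1 replicate 3 (limma adjusted p up to 0.0973). OS03G0132900 was not called with OE2 replicate 3, dgk1 replicate 1 or dgk1 replicate 2 left out (limma adjusted p up to 0.0535). OS01G0660200 lost its call without any 1 library other than OE2 replicate 1 and OE2 replicate 2 (limma adjusted p up to 0.0749). OS08G0518900 was no longer called without any 1 library other than dgk1 replicate 1 and dgk1 replicate 3 (limma adjusted p up to 0.0626).

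**Figure D4:**
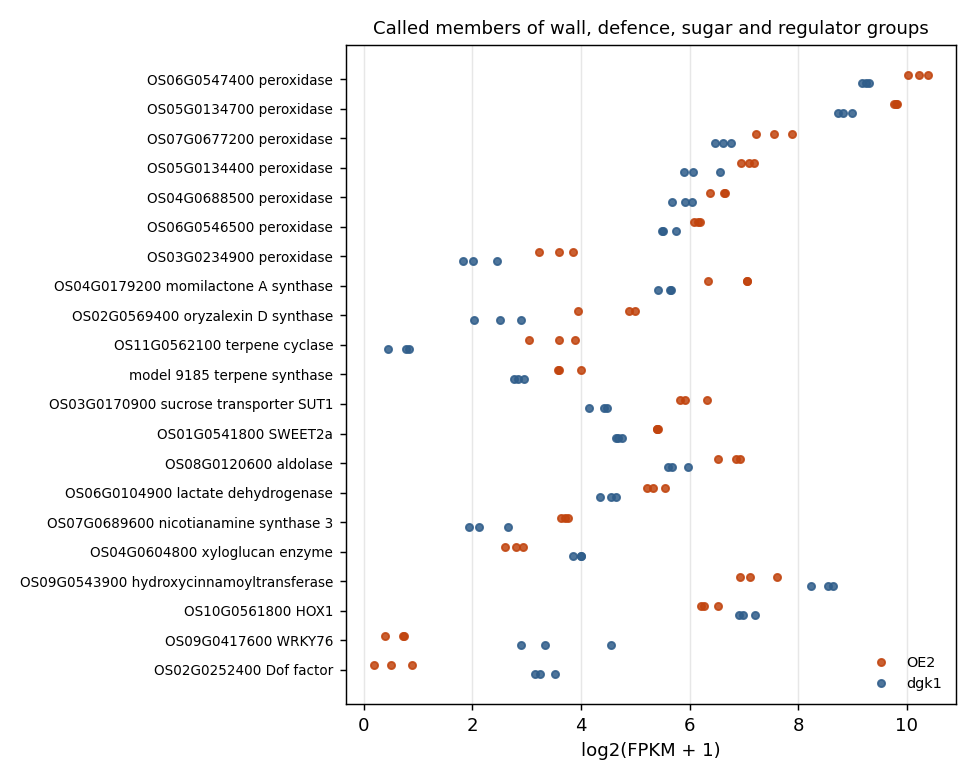
Level in each library, as log2(FPKM + 1), of called members of the wall, defence, sugar, metal and regulator groups; OE2 points lie above dgk1 points at each gene. All 7 peroxidases and both phytoalexin genes are higher in OE2, and the last 5 genes are lower.

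Genes for NB-ARC proteins, the intracellular immune receptors of plants, had 11 rises and 8 falls among 112 members, 17.0% called against 7.17% of all models. Of these 19 calls, 17 were among the 59 members on chromosomes 6, 11 and 12 (28.8%, against 14.7% of all models there), and 2 among the 53 elsewhere (3.77%, against 5.36%). Of the 112, 3 were listed at 0 in all OE2 libraries and 1 in all dgk1 libraries, so these counts too are a description. OS12G0204600 on chromosome 12 had 20.002, 26.9 and 15.9 FPKM in the OE2 libraries, against 0, 0.039 and 0.0347 FPKM in the dgk1 libraries. It rose (log2 fold change 4.39 ± 0.20, limma adjusted p = 5.8e-05), while model 10043 on chromosome 11 had 0, 0 and 0 FPKM in OE2, against 8.76, 9.67 and 6.4 FPKM in dgk1 and fell. Next to it on that chromosome, model 10050 fell too, with 0.18, 0.191 and 0.0794 FPKM in OE2, against 5.51, 6.3 and 4.22 FPKM in dgk1 (log2 fold change -2.45, limma adjusted p = 0.000322). Model 39122, the one fall on chromosome 9, had 0, 0 and 0 FPKM in OE2, against 9.23, 5.4 and 6.68 FPKM in dgk1. The rises picked after their values were seen included model 9620 on chromosome 11, with 17 ± 1.93 FPKM in OE2 and 4.22 ± 0.323 FPKM in dgk1, and model 11375 on chromosome 12, with 10.9 ± 1.12 FPKM in OE2 and 1.56 ± 0.671 FPKM in dgk1. With single libraries left out, 9 or 10 members were called higher and 8 lower.

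Receptor kinases showed no shared direction. Among 43 leucine-rich repeat kinases, surface receptors for peptides and microbial patterns, 2 rose and 2 fell, 9.3% called against 7.17% of all models. Model 10140 at the end of chromosome 11 had 7.34, 9.74 and 8.56 FPKM in the OE2 libraries, against 0, 0 and 0 FPKM in the dgk1 libraries. Against the floor of 3 fragments over the dgk1 libraries, this was at least 403-fold higher. The further members were model 9786 on chromosome 11, which rose with 3.5 ± 1.25 FPKM in OE2 and 0.383 ± 0.201 FPKM in dgk1, and models 4323 and 21710 on chromosomes 1 and 3, which fell with at most 1.15 FPKM in OE2. In the list of other receptor kinases, 1 of 25 rose and 1 fell (8%). They were the further members model 40418 on chromosome 9 and model 35931 on chromosome 8, both below 5 FPKM. Calcium/calmodulin-regulated receptor-like kinase 2 (OS06G0283300), the most abundant of that list, averaged 67.9 ± 7.13 FPKM in OE2 and 67.3 ± 6.35 FPKM in dgk1 (limma adjusted p = 0.970). Model 4323 lost its call without OE2 replicate 3 or dgk1 replicate 3 (limma adjusted p up to 0.0501). Model 21710 and model 40418 were no longer called without any 1 of the 6 libraries (limma adjusted p up to 0.114).

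Among transcription factors, WRKY76 (OS09G0417600), a repressor of defence genes in rice, had 0.652, 0.306 and 0.669 FPKM in the OE2 libraries, against 22.3, 9.1 and 6.44 FPKM in the dgk1 libraries. Dgk1 replicate 1 was the highest, and all dgk1 libraries were above all OE2 libraries (log2 fold change -2.98 ± 0.42, limma adjusted p = 0.00891). The Dof zinc finger gene OS02G0252400 had 0.133, 0.846 and 0.41 FPKM in the OE2 libraries, against 7.9, 8.43 and 10.5 FPKM in the dgk1 libraries. It was below 1 FPKM in every OE2 library (log2 fold change -2.79 ± 0.22, limma adjusted p = 0.000577). HOX1 (OS10G0561800), of the homeobox-leucine zipper factors, fell, with 79.6 ± 9.55 FPKM in OE2 and 130.2 ± 14.3 FPKM in dgk1 (log2 fold change -0.71, limma adjusted p = 0.0203). Of 36 NAC factors, a family with roles in lateral roots, walls and stress, 3 rose and none fell, 8.33% against 3.85% of all models higher. They were OS03G0815100, OS11G0127600 and model 8959 on chromosome 11. OS03G0815100 was the most abundant of the 3, with 707 ± 38.6 FPKM in OE2 and 530.4 ± 44.9 FPKM in dgk1. The C2H2 factor OS03G0437200 rose, with 253 ± 17.2 FPKM in OE2 and 175 ± 10.1 FPKM in dgk1, and a further WRKY member, model 2541 on chromosome 1, rose with 4.31 ± 1.05 FPKM in OE2 and 1.76 ± 0.412 FPKM in dgk1. OS10G0561800 lost its call without any 1 library other than OE2 replicate 2 and dgk1 replicate 2 (limma adjusted p up to 0.0825). OS03G0815100 was no longer called without any 1 of the 6 libraries (limma adjusted p up to 0.151). OS11G0127600 was not called with any 1 library other than dgk1 replicate 3 left out (limma adjusted p up to 0.0901). Model 8959 lost its call without dgk1 replicate 1 or dgk1 replicate 3 (limma adjusted p up to 0.0566). OS03G0437200 was no longer called without OE2 replicate 3, dgk1 replicate 1 or dgk1 replicate 3 (limma adjusted p up to 0.068). Model 2541 was not called with any 1 library other than OE2 replicate 1 left out (limma adjusted p up to 0.137).

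Light and clock regulators had 3 rises and 2 falls among 17, 29.4% called against 7.17% of all models. Of the 3 members on chromosomes 6, 11 and 12, 2 were called, and of the 14 elsewhere 3 were (21.4%, against 5.36% of all models there). Model 27661 on chromosome 5, with the FAR1 DNA-binding domain of light signalling and a transposase domain, had 5.49, 5.33 and 5.29 FPKM in the OE2 libraries, against 0, 0 and 0 FPKM in the dgk1 libraries. Its OE2 libraries were nearly equal (log2 fold change 2.67 ± 0.12, limma adjusted p = 5.98e-05), and it passed the filter only through OE2. The phytochrome A-associated F-box protein OS05G0365000 rose, with 30.5 ± 2.49 FPKM in OE2 and 17 ± 3.23 FPKM in dgk1 (log2 fold change 0.82, limma adjusted p = 0.0236), and so did model 36686 on chromosome 8, with a CCT motif, known from clock and flowering genes, with 9.42 ± 0.474 FPKM in OE2 and 4.98 ± 1.03 FPKM in dgk1. Cryptochrome DASH (OS06G0661800), a photolyase-like protein, fell, with 9.31 ± 1.53 FPKM in OE2 and 16.4 ± 1.66 FPKM in dgk1. The further member model 11364 on chromosome 12, listed through its FAR1 domain, fell with 1.84 ± 0.305 FPKM in OE2 and 3.78 ± 0.448 FPKM in dgk1. Chlorophyll a-b binding protein 1 (OS09G0346500) was the 1 called member of the 17 photosynthesis genes and rose, with 209, 138 and 142 FPKM in OE2, against 76.1, 87.6 and 66.2 FPKM in dgk1 (log2 fold change 1.06, limma adjusted p = 0.022). This gene made up much of the higher summed level of that list in OE2, so the sum adds nothing to the call. OS05G0365000 and model 36686 lost their calls without any 1 library other than dgk1 replicate 1 (limma adjusted p up to 0.102). OS06G0661800 was no longer called without any 1 of the 6 libraries (limma adjusted p up to 0.116). Model 11364 was not called with any 1 library other than OE2 replicate 2 left out (limma adjusted p up to 0.12). OS09G0346500 lost its call without OE2 replicate 3, dgk1 replicate 1 or dgk1 replicate 3 (limma adjusted p up to 0.0854).

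Of 22 cytokinin genes among the hormone genes, 2 fell and none rose, 9.09% lower against 3.32% of all models. Both encode phosphoribohydrolases that release active cytokinin, the hormone that promotes division and restrains root growth. LOGL5 (OS03G0857900) had 107, 122 and 105 FPKM in the OE2 libraries, against 151, 168 and 184 FPKM in the dgk1 libraries. LOGL10 (OS10G0479500) had 9.2, 6.11 and 8.97 FPKM in the OE2 libraries, against 13.2, 15.5 and 15.1 FPKM in the dgk1 libraries. Every dgk1 library exceeded every OE2 library in both genes, and they fell (log2 fold changes -0.59 and -0.80, limma adjusted p = 0.0228 and 0.0443). Over the 22 genes the median log2 fold change was -0.17, with 13 negative. Without OE2 replicate 2, 3 were called lower, and without OE2 replicate 1 or 3 or dgk1 replicate 2 or 3, none was. OS03G0857900 lost its call without any 1 library other than OE2 replicate 2 and dgk1 replicate 1 (limma adjusted p up to 0.0916). OS10G0479500 was no longer called without any 1 library other than OE2 replicate 2 (limma adjusted p up to 0.14).

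Of 69 auxin genes 2 rose and 3 fell, 7.25% against 7.17% of all models. Auxin response factor 8 (OS02G0628600), a DNA-binding factor of auxin signalling, had 56.4, 51.1 and 53.4 FPKM in the OE2 libraries, against 74.1, 67.9 and 73.3 FPKM in the dgk1 libraries. It fell with a small log2 fold change (log2 fold change -0.41 ± 0.08, limma adjusted p = 0.0367). The repressor IAA26 (OS09G0527700) fell, with 3.33 ± 0.681 FPKM in OE2 and 6.7 ± 0.239 FPKM in dgk1, and so did the auxin-responsive OS03G0797800, with 2.23 ± 0.436 FPKM in OE2 and 5.29 ± 1.51 FPKM in dgk1. The auxin-regulated OS07G0486500 rose, with 40.8, 41 and 45.1 FPKM in OE2, against 26.6, 28 and 26.5 FPKM in dgk1 (log2 fold change 0.63, limma adjusted p = 0.00814), and a further member, the IAA-amino acid hydrolase OS01G0560000, which frees auxin from conjugates, rose with 285 ± 13.2 FPKM in OE2 and 221 ± 11.8 FPKM in dgk1. OS02G0628600, OS03G0797800 and OS01G0560000 lost their calls without any 1 of the 6 libraries (limma adjusted p up to 0.132). OS09G0527700 was no longer called without any 1 library other than OE2 replicate 2 and OE2 replicate 3 (limma adjusted p up to 0.0864).

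Other hormone lists held 1 or 2 calls each, at shares below the 7.17% of all models: 2.13% of ethylene, 6.897% of jasmonate and 4.545% of abscisic acid genes. Of 47 ethylene and AP2/ERF genes 1 rose, OS01G0141000, with AP2/ERF and B3 domains and 194 ± 7.39 FPKM in OE2 and 131 ± 15 FPKM in dgk1. Of 29 jasmonate genes 2 fell, the further members OS06G0215900, an oxophytodienoate reductase of jasmonate synthesis, and model 33017 on chromosome 7, a TIFY repressor, both below 5 FPKM. The most abundant jasmonate gene, TIFY 10b (OS07G0615200), averaged 1614 ± 46.1 FPKM in OE2 and 1764 ± 59.3 FPKM in dgk1 (limma adjusted p = 0.328). Of 44 abscisic acid and dehydration genes 1 rose and 1 fell, both protein phosphatases 2C, the family that holds abscisic acid signalling off. OS02G0224100 averaged 39.3 ± 4.18 FPKM in OE2 and 26.3 ± 1.15 FPKM in dgk1, and OS12G0580900 6.85 ± 1.31 FPKM in OE2 and 13.7 ± 0.676 FPKM in dgk1 (limma adjusted p = 0.0300 and 0.0137). Limma called 0 of 23 gibberellin and brassinosteroid genes, with 2 at an unadjusted p under 0.05 and 0 called by limma-voom. OS01G0141000 lost its call without any 1 library other than dgk1 replicate 2 and dgk1 replicate 3 (limma adjusted p up to 0.0951). Model 33017 and OS02G0224100 were no longer called without any 1 library other than OE2 replicate 3 (limma adjusted p up to 0.149). OS12G0580900 was not called with any 1 library other than OE2 replicate 2 and dgk1 replicate 2 left out (limma adjusted p up to 0.0633).

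Genes that move and break down sugars were called at shares below the 7.17% of all models, 6.45% of those of sucrose, trehalose and sugar transport and 3.45% of glycolysis enzymes. Of 31 in the first list 2 rose and none fell. The sucrose transporter SUT1 (OS03G0170900), which loads sucrose across the plasma membrane, had 59.5, 55.3 and 79.2 FPKM in the OE2 libraries, against 21.3, 20.4 and 16.7 FPKM in the dgk1 libraries. Every OE2 library was far above every dgk1 library (log2 fold change 1.67 ± 0.17, limma adjusted p = 0.00163). SWEET2a (OS01G0541800), of the bidirectional sugar transporters, had 41.1, 41.1 and 41.5 FPKM in the OE2 libraries, against 24.1, 24.7 and 25.9 FPKM in the dgk1 libraries. The OE2 libraries were nearly equal and above all dgk1 libraries (log2 fold change 0.71 ± 0.08, limma adjusted p = 0.00357), and both calls held without each library in turn. Fructose-bisphosphate aldolase OS08G0120600 was the 1 called member of the 29 listed glycolysis enzymes. It had 90.5, 120.3 and 114 FPKM in the OE2 libraries, against 61.8, 47.5 and 49.8 FPKM in the dgk1 libraries (log2 fold change 1.01, limma adjusted p = 0.00986). Over those 29 the median log2 fold change was 0.15, with 24 positive. That median was 0.071 without OE2 replicate 2 and 0.073 with all libraries scaled to the same sum. The same scaling moved the median of all models by -0.07. A listed glycolysis enzyme was also called lower without OE2 replicate 2. Hexokinase-8 (OS01G0190400) matched no list, so the share leaves it out, and its rise is given under the other observations. OS08G0120600 lost its call without OE2 replicate 3 (limma adjusted p up to 0.0502).

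Of 12 hypoxia and fermentation genes, 1 rose and 1 fell, 16.7% called against 7.17% of all models. Of the 4 members on chromosomes 6, 11 and 12, 2 were called, and of the 8 elsewhere none was. L-lactate dehydrogenase (OS06G0104900), which regenerates NAD when respiration is limited, had 36.3, 45.9 and 39.2 FPKM in the OE2 libraries, against 19.4, 22.6 and 24.1 FPKM in the dgk1 libraries. The lines were apart (log2 fold change 0.85 ± 0.13, limma adjusted p = 0.0117). The further member model 8527, a zinc-binding dehydrogenase on chromosome 11, was listed at 0 in all OE2 libraries and averaged 2.98 ± 0.177 FPKM in dgk1. It passed the filter only through dgk1. Non-symbiotic hemoglobin 2 (OS03G0226200), which scavenges nitric oxide under low oxygen, had 353, 656 and 364 FPKM in OE2, against 114, 223 and 151 FPKM in dgk1. OE2 replicate 2 was the highest, and the gene just missed the threshold (log2 fold change 1.48 ± 0.33, limma adjusted p = 0.0502). Alcohol dehydrogenase 2 (OS11G0210500) had 1323, 2182 and 1316 FPKM in OE2, against 904, 854 and 979 FPKM in dgk1 (log2 fold change 0.78, limma adjusted p = 0.091). Again OE2 replicate 2 was the highest, and none of its dgk1 libraries reached the OE2 range. These last 2 genes were picked after their values were seen.

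Ribosomal proteins and histones had more negative than positive differences, unlike the translation factors and tRNA ligases, with 36 positive and 32 negative. Other lists were skewed too, such as replication and cell cycle genes (11 positive, 29 negative) and, the other way, proteasome and ubiquitin genes (89 positive, 35 negative). Of 148 ribosomal proteins 2 fell and none rose, 1.35% called against 7.17% of all models. Of the 148, 114 had negative log2 fold changes (median -0.15) and 55 had an unadjusted p under 0.05. The summed level of the 148 was 29051, 27183 and 27786 FPKM in OE2, against 31334, 31640 and 31321 FPKM in dgk1, with no overlap. L27a-3 (OS03G0408300) had 534, 501 and 546 FPKM in the OE2 libraries, against 671, 662 and 681 FPKM in the dgk1 libraries and fell (log2 fold change -0.35, limma adjusted p = 0.03), and so did the further member model 9698 on chromosome 11, with 1.35 ± 0.264 FPKM in OE2 and 4.52 ± 0.876 FPKM in dgk1. Scaling all libraries to the same sum moved the median of these genes to -0.24, but it also moved the median of all models by -0.07. Of 31 histone genes, which package newly made DNA, 1 rose and 2 fell (9.68%), with 22 negative (median -0.18). Their summed level was 4684, 4567 and 4963 FPKM in OE2, against 5178, 5420 and 5113 FPKM in dgk1. Histone H2A.5 (OS03G0279200) had 174, 191 and 186 FPKM in OE2, against 234, 238 and 243 FPKM in dgk1 and fell (log2 fold change -0.38, limma adjusted p = 0.0291), as did H2A.7 (OS12G0438000), while model 443 on chromosome 1, a core histone, rose. OS03G0408300 lost its call without any 1 of the 6 libraries (limma adjusted p up to 0.106). OS03G0279200 was no longer called without any 1 library other than OE2 replicate 2 (limma adjusted p up to 0.107). OS12G0438000 was not called with any 1 library other than OE2 replicate 3 left out (limma adjusted p up to 0.123). Model 443 lost its call without OE2 replicate 1, dgk1 replicate 2 or dgk1 replicate 3 (limma adjusted p up to 0.0549).

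Replication and cell cycle genes had 1 rise and 1 fall among 40, 5% called against 7.17% of all models. Of the 40, 11 had positive and 29 negative log2 fold changes (median -0.14). Cyclin-dependent kinase F-1 (OS06G0334400), which activates other kinases of the cycle, had 72.7, 62.5 and 70.9 FPKM in the OE2 libraries, against 36.9, 37.5 and 35.4 FPKM in the dgk1 libraries. It rose (log2 fold change 0.89 ± 0.09, limma adjusted p = 0.00204), and it lies in a stretch of chromosome 6 where 14 of 41 models were called. Model 36285 on chromosome 8, a DNA polymerase of family A, fell, with 7.15 ± 0.875 FPKM in OE2 and 16.5 ± 1.49 FPKM in dgk1 (log2 fold change -1.11, limma adjusted p = 0.00376). Of 100 tubulin, actin and motor genes, 1 rose and 1 fell (2%). The alpha-tubulin OS03G0726100, a subunit of microtubules, fell, with 256 ± 4.82 FPKM in OE2 and 336 ± 15.8 FPKM in dgk1 (log2 fold change -0.39, limma adjusted p = 0.0236). The myosin-like OS07G0506600 rose, with 18.1 ± 3.12 FPKM in OE2 and 9.64 ± 1.55 FPKM in dgk1 (log2 fold change 0.84, limma adjusted p = 0.0368). OS03G0726100 lost its call without any 1 of the 6 libraries (limma adjusted p up to 0.0973). OS07G0506600 was no longer called without any 1 library other than OE2 replicate 2 (limma adjusted p up to 0.125).

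Protein folding and turnover genes were called at shares below the 7.17% of all models. Of 102 heat shock proteins and chaperones 3 rose and 1 fell (3.92%). The class I small heat shock protein OS03G0266900 had 27.1, 21.7 and 23 FPKM in the OE2 libraries, against 6.92, 9.86 and 8.99 FPKM in the dgk1 libraries. The class V small heat shock protein OS07G0517100 had 11.2, 16.9 and 10.4 FPKM in the OE2 libraries, against 41, 33.1 and 36.4 FPKM in the dgk1 libraries. The first rose (log2 fold change 1.38 ± 0.16, limma adjusted p = 0.00318) and the second fell (log2 fold change -1.47 ± 0.19, limma adjusted p = 0.00585), each with the lines apart. The mitochondrial OS02G0758000 rose, with 117 ± 3.86 FPKM in OE2 and 66.9 ± 5.54 FPKM in dgk1, and a further member, the heat shock cognate OS03G0277300, with 2.94 ± 0.021 FPKM in OE2 and 1.1 ± 0.448 FPKM in dgk1. Of 124 proteasome and ubiquitin genes 4 rose and 2 fell (4.84%). Proteasome subunit alpha type-5 (OS11G0615700) rose on chromosome 11, with 27.3, 32.1 and 27.8 FPKM in OE2, against 7.8, 6.79 and 6.25 FPKM in dgk1 (log2 fold change 1.92, limma adjusted p = 0.000258), and the HECT ubiquitin ligase model 28287 on chromosome 5, with 53.3 ± 3.68 FPKM in OE2 and 33.2 ± 2.52 FPKM in dgk1. Of 107 F-box and BTB genes, which pick targets for ubiquitin, 4 rose and 1 fell (4.67%), led by OS11G0593700, with 8.42 ± 0.489 FPKM in OE2 and 2.14 ± 0.943 FPKM in dgk1 (log2 fold change 1.63, limma adjusted p = 0.00898). OS03G0277300 lost its call without any 1 library other than dgk1 replicate 2 (limma adjusted p up to 0.118).

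Against 7.17% of all models, 5.405% of metal homeostasis genes, 3.92% of ion channels and pumps, 7.5% of ABC transporters and 2.56% of phosphate and sulfate genes were called. Nicotianamine synthase 3 (OS07G0689600), which makes the chelator that moves iron and zinc, had 12, 11.4 and 12.6 FPKM in the OE2 libraries, against 5.31, 2.82 and 3.36 FPKM in the dgk1 libraries. It rose (log2 fold change 1.46 ± 0.20, limma adjusted p = 0.0072), opposite to the metallothionein, and these were the 2 calls among 37 metal homeostasis genes. The nitrate transport partner OS04G0480200 had 6.06, 9.69 and 7.41 FPKM in the OE2 libraries, against 2.94, 1.48 and 2.03 FPKM in the dgk1 libraries. The lowest OE2 library was above the highest dgk1 library (log2 fold change 1.47 ± 0.23, limma adjusted p = 0.0127). Potassium transporter 21 (OS03G0576200) rose, with 36 ± 4.59 FPKM in OE2 and 15.8 ± 4.84 FPKM in dgk1 (log2 fold change 1.18, limma adjusted p = 0.0294). All 3 called ABC transporters of 40 rose: OS02G0693700, model 11249 on chromosome 12 and OS01G0830000, and OS02G0693700 averaged 21.7 ± 3.71 FPKM in OE2 and 9.68 ± 1.91 FPKM in dgk1. The amino acid permease OS12G0623500 rose, with 549.8 ± 15.3 FPKM in OE2 and 405 ± 14 FPKM in dgk1, and a further permease, model 24764 on chromosome 4, fell, with 0.0876 ± 0.102 FPKM in OE2 and 2.3 ± 0.631 FPKM in dgk1. The 1 called member of 39 phosphate and sulfate genes was a further member, the purple acid phosphatase OS11G0549615, which fell with 0.107 ± 0.185 FPKM in OE2 and 3.97 ± 0.759 FPKM in dgk1. OS04G0480200 lost its call without OE2 replicate 3 or dgk1 replicate 3 (limma adjusted p up to 0.0554). OS03G0576200 was no longer called without any 1 library other than dgk1 replicate 2 and dgk1 replicate 3 (limma adjusted p up to 0.109). OS02G0693700 was not called with OE2 replicate 2, OE2 replicate 3 or dgk1 replicate 1 left out (limma adjusted p up to 0.0662). Model 11249 lost its call without any 1 library other than OE2 replicate 2 and OE2 replicate 3 (limma adjusted p up to 0.108). OS01G0830000 was no longer called without any 1 of the 6 libraries (limma adjusted p up to 0.143). OS12G0623500 was not called with OE2 replicate 3, dgk1 replicate 1 or dgk1 replicate 3 left out (limma adjusted p up to 0.0617).

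Of 31 glutathione S-transferases, which couple glutathione to reactive compounds, 3 rose and none fell, 9.68% against 3.85% of all models higher. Over the list 18 members had positive and 13 negative log2 fold changes, with a median of 0.04. Without OE2 replicate 3 or dgk1 replicate 1, 1 member was called higher. GSTU6 (OS10G0530200) had 28.4, 23.6 and 22.9 FPKM in the OE2 libraries, against 12.2, 13.1 and 13 FPKM in the dgk1 libraries. Model 14448 on chromosome 2 had 204, 241 and 222 FPKM in the OE2 libraries, against 133, 132 and 154 FPKM in the dgk1 libraries. Both rose, with the lines apart (log2 fold changes 0.91 and 0.67, limma adjusted p = 0.00514 and 0.0115), as did the further member model 11044 on chromosome 12. The mitochondrial manganese superoxide dismutase OS05G0323900, which removes superoxide, had 264, 251 and 249 FPKM in the OE2 libraries, against 166, 167 and 184 FPKM in the dgk1 libraries (log2 fold change 0.56, limma adjusted p = 0.00766). Of 92 glycosyltransferases 4 rose and 1 fell (5.435%), and of 40 cytochrome P450 enzymes 2 rose and 1 fell (7.5%), against 7.17% of all models. The most abundant called glycosyltransferase, OS11G0599200, averaged 305 ± 28.3 FPKM in OE2 and 157 ± 15.9 FPKM in dgk1 (log2 fold change 0.96, limma adjusted p = 0.00354). In vesicle traffic, 3 of 61 genes rose and 1 fell (6.56%). The plant SNARE OS03G0369800 rose, with 55.4 ± 0.58 FPKM in OE2 and 41.5 ± 2.71 FPKM in dgk1. The vesicle transport protein OS06G0300300 fell, with 3.87 ± 0.5996 FPKM in OE2 and 12.1 ± 1.73 FPKM in dgk1. Model 14448 lost its call without OE2 replicate 3 or dgk1 replicate 1 (limma adjusted p up to 0.0566). Model 11044 was no longer called without any 1 library other than OE2 replicate 2 (limma adjusted p up to 0.125). OS03G0369800 was not called with any 1 of the 6 libraries left out (limma adjusted p up to 0.133).

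**Figure D5:**
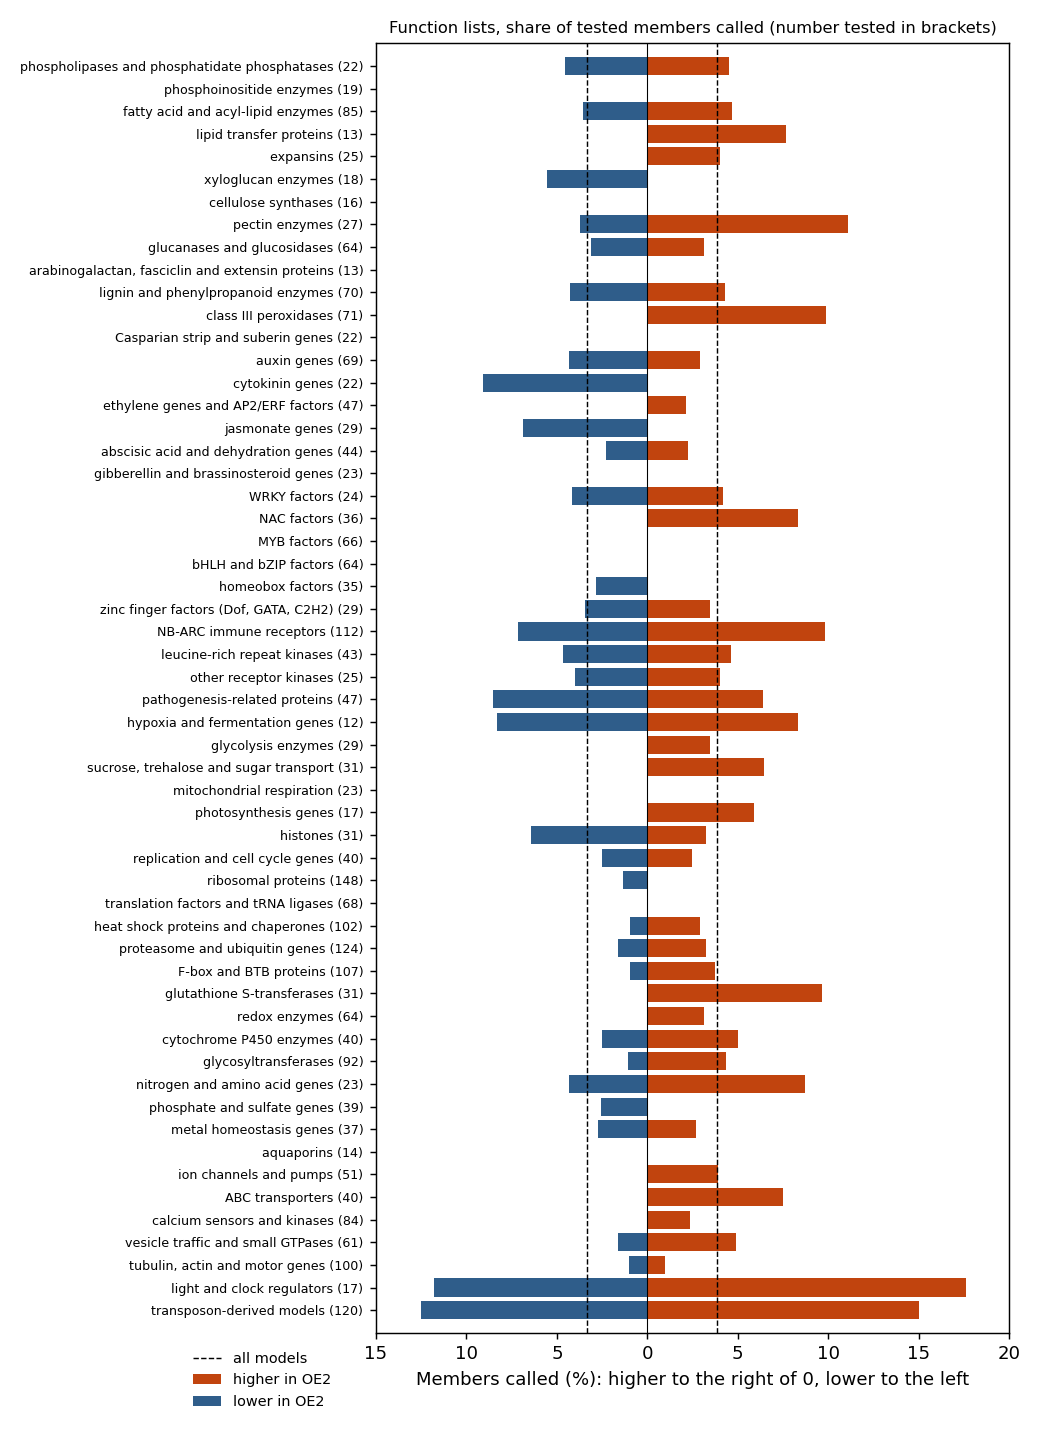
Share of tested members called in each function list with at least 10 tested members, in percent, with members higher in OE2 to the right of 0 and members lower in OE2 to the left. Dashed lines mark 3.85% higher and 3.32% lower over all models. Transposon-derived models and light and clock regulators reach furthest on both sides, and peroxidases reach to the right with nothing to the left.

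Of the lists, the transposon-derived models had the most calls, with 18 rises and 15 falls among 120 (27.5%, against 7.17% of all models). Outside chromosomes 6, 11 and 12, 20 of 93 were called (21.5%, against 5.36% of all models there). Of the 120, 5 were listed at 0 in all OE2 libraries and 10 in all dgk1 libraries, and these passed the filter only through the line where they were high, so the counts are a description. In 2 classes of the cell wall and barrier no member was called by limma. They were 16 cellulose synthases (1 at an unadjusted p under 0.05, 1 called by limma-voom) and 22 Casparian strip and suberin genes (2 and 0). The same held for 13 arabinogalactan, fasciclin and extensin proteins (2 and 0), 14 aquaporins (1 and 1) and 23 genes of mitochondrial respiration (1 and 0). It also held for 66 MYB factors (9 and 1), 64 bHLH and bZIP factors (12 and 3) and 68 translation factors and tRNA ligases (6 and 0). CASP-like protein 1D1 (OS07G0442900), named for its likeness to the membrane proteins that lay out the Casparian strip, averaged 374 ± 34.3 FPKM in OE2 and 318 ± 24.4 FPKM in dgk1 (limma adjusted p = 0.248). The cellulose synthase subunit OS07G0252400 averaged 154 ± 48.9 FPKM in OE2 and 172 ± 45.5 FPKM in dgk1 (limma adjusted p = 0.765), and aquaporin PIP1-1 (OS02G0666200) 1392 ± 289.7 FPKM in OE2 and 1391 ± 137 FPKM in dgk1 (limma adjusted p = 0.970). A miss of the threshold does not show that the lines were alike at these genes.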

How the data were processed

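Root RNA of 3 OE2 and 3 dgk1 libraries was compared, grouped by the labels; p-values measure the spread between these libraries. The deposited values are in FPKM, a unit inferred from how the values scale with the listed lengths, as neither headers nor labels give it. The authors' tools include CASAVA 1.8 and HISAT2, per the submitters' processing notes; the counter, its strand setting, the build and the annotation used are not stated in the sources used here. Overlapping and antisense models thus cannot be told apart, and coordinates are as the files list them. Whole fragments were recovered for 100% of values, within a tolerance of 0.01 of a whole multiple, and all replicates differed by more than sampling noise. Intervals and floors cover counting error only.

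Tests planned for counts were dropped, as the deposited unit is FPKM. limma 3.58.1 (R 4.3.3, statmod 1.5.0) was run on log2(FPKM + 1), trended and robust, which understates changes of low genes, for models that reached 1 FPKM in 3 or more of the 6 libraries. Calls have an adjusted p (Benjamini-Hochberg over 21115 models, two-sided) under 0.05. On simulated data the test made false calls above that rate, also with models of few fragments left out. Errors are SD (n = 3) or SE of the log2 fold change. The 59 function lists were matched on the files' descriptions. Named models are the diacylglycerol kinases, the 12 largest rises and 12 largest falls with a named function and at least 5 FPKM in the higher line, and up to 4 called members of each list, or its most abundant member where none was called at that level; of these 133, the text describes a part. Further models are said to be picked after their values were seen. The comparison, lists and rule were chosen with earlier results of these data known.

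Alternatives were no filter, a filter of 5 FPKM, a pseudocount of 0.1, no trend, 2 other scalings, limma-voom on the recovered fragments, a 2-fold threshold, a block on the replicate number, and leaving out single libraries. Sequences were not used.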

Additional observations from a re-analysis of the deposited data

How the results depend on the processing

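Of 1513 models called, 813 higher and 700 lower, a filter of 5 FPKM left 799 (459 higher, 340 lower) of 11298 tested. A threshold of 2-fold left 534 higher. Without chromosomes 6, 11 and 12, an alternative chosen after seeing the data, 912 of 17025 were called. Requiring 10 fragments per library on average, chosen likewise, called 1568 of 18536, of which 1287 were among the 1513, and 224 of the 1513 were models below that depth. With each library left out, the count lay between 1010 and 1360 (higher calls 512 to 705, lower calls 469 to 655). Scaling to the same sum per library called 1557 and moved the share of higher calls to 45.5%, against 53.7%. Limma-voom called 1840, and no filter, a pseudocount of 0.1, no trend and centring called 1356 to 1519.

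Same-numbered libraries did not deviate together (correlations 0.0476, -0.18 and -0.105), so they share only a number. With the replicate number as a block, 912 models were called, 466 higher and 446 lower. The closest number was not always the library's own.

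Of the 133 named models 113 were called, 55 of them in every alternative run on single models and 57 without each library in turn, and none changed direction. Among the 113, limma's adjusted p reached at most 0.188 in any alternative. Depth limits models near 1 FPKM most, and the cause of lost calls was not tested.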

Other observations

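Several called genes of metabolism matched none of the function lists and were picked after their values were seen. In the plastid pathway that makes isoprenoid precursors, the reductoisomerase OS01G0106900 had 56.7, 67.1 and 74.4 FPKM in the OE2 libraries, against 44.1, 39.4 and 40.02 FPKM in the dgk1 libraries. The last enzyme of that pathway, the reductase OS03G0731900, had 77, 79.97 and 91.6 FPKM in the OE2 libraries, against 56.8, 55.1 and 48.2 FPKM in the dgk1 libraries. Both were higher in every OE2 library (log2 fold change 0.66, limma adjusted p = 0.0236; and log2 fold change 0.62, limma adjusted p = 0.0193). In sulfur metabolism, the cyanoalanine and cysteine synthase OS04G0165700, which also detoxifies the cyanide released by ethylene synthesis, had 462, 381 and 437 FPKM in the OE2 libraries, against 209, 199 and 214 FPKM in the dgk1 libraries. Serine acetyltransferase 5 (OS05G0533500), which supplies the precursor of cysteine, had 24.2 ± 1.22 FPKM in OE2 and 14.2 ± 1.44 FPKM in dgk1, and the methionine salvage dioxygenase OS10G0419400 had 161 ± 19.7 FPKM in OE2 and 69.8 ± 2.14 FPKM in dgk1. All 3 rose (limma adjusted p = 0.0011, 0.0109 and 0.000974). Pyruvate, phosphate dikinase 1 (OS05G0405000) had 540.3, 318 and 689 FPKM in the OE2 libraries, against 99.9, 204 and 71.1 FPKM in the dgk1 libraries, with a wide spread in both lines (log2 fold change 2.11 ± 0.45, limma adjusted p = 0.0437). Hexokinase-8 (OS01G0190400), which phosphorylates glucose, rose, with 21.5 ± 2.68 FPKM in OE2 and 9.49 ± 1.62 FPKM in dgk1 (log2 fold change 1.11, limma adjusted p = 0.00852). OS01G0106900 lost its call without any 1 library other than OE2 replicate 1 (limma adjusted p up to 0.0891). OS03G0731900 was no longer called without any 1 library other than OE2 replicate 1 and OE2 replicate 2 (limma adjusted p up to 0.0657). OS05G0405000 was not called with any 1 library other than OE2 replicate 2 and dgk1 replicate 2 left out (limma adjusted p up to 0.141).

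Among signalling and transport genes outside the lists, the protein kinase PINOID (OS12G0614600), which directs auxin carriers in Arabidopsis, fell, with 17, 13.5 and 19.5 FPKM in the OE2 libraries, against 28.2, 25.9 and 26.7 FPKM in the dgk1 libraries (log2 fold change -0.67, limma adjusted p = 0.0441). The WAT1-related transporter OS06G0210000 had 39.1, 30.9 and 46 FPKM in the OE2 libraries, against 7.03, 5.81 and 6.26 FPKM in the dgk1 libraries and rose (log2 fold change 2.41 ± 0.17, limma adjusted p = 0.000313). A pair of sodium/hydrogen exchangers, which move sodium or potassium against protons, rose on chromosomes 11 and 12: OS11G0648000, with 67.1 ± 8.99 FPKM in OE2 and 24.7 ± 2.59 FPKM in dgk1, and model 12476, with 189 ± 36.5 FPKM in OE2 and 100.3 ± 12.6 FPKM in dgk1. Bax inhibitor 1 (OS02G0125300), which restrains cell death, fell, with 156 ± 21.1 FPKM in OE2 and 247 ± 23.1 FPKM in dgk1 (log2 fold change -0.67, limma adjusted p = 0.0257), and SRP72 (OS01G0889000), of the particle that brings proteins to the endoplasmic reticulum, fell, with 75.8 ± 2.65 FPKM in OE2 and 139 ± 3.64 FPKM in dgk1 (log2 fold change -0.87, limma adjusted p = 0.000806). OS12G0614600 lost its call without any 1 library other than OE2 replicate 3 (limma adjusted p up to 0.146). Model 12476 was no longer called without OE2 replicate 3, dgk1 replicate 1 or dgk1 replicate 2 (limma adjusted p up to 0.0912). OS02G0125300 was not called with any 1 library other than OE2 replicate 2 and dgk1 replicate 1 left out (limma adjusted p up to 0.0985).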
